A study of Arabidopsis thaliana with 6 samples.

Results

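EDS1, PAD4 and SAG101, the helper receptors ADR1, ADR1-L1, ADR1-L2, NRG1.1 and NRG1.2, and the membrane protein NDR1 form the signalling layer between intracellular immune receptors and defence gene expression in Arabidopsis thaliana. Together with EDS1B, the second EDS1 copy of this accession, they make 10 genes, which were taken by locus identifier from a table of 33557 loci and were not picked on a measured value. The table compares camta1/2/3/sid2 plants with wild-type plants (WT), both of the Col-0 accession. The mutant carries mutations in CAMTA1, CAMTA2 and CAMTA3, which encode calmodulin-binding transcription factors, and in SID2, which encodes isochorismate synthase 1 (ICS1). For each genotype 3 libraries were made from the entire aerial part of plants aged 21 days, grown on soil at 22 °C with 12 h of light and collected at zeitgeber time 12, the end of the light period. The labels name no allele for any of the 4 mutated genes, and the mutant was compared with WT alone, so the part of each mutation cannot be told apart.

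The values are FPKM, which divide the fragments of a gene by its length and by library size, and the table holds 1 value per genotype and locus, combined by the authors. No difference below therefore has a replicate error or a test, and sequencing depth is unknown. The log2 ratio used here is log2(FPKM + 1) in camta1/2/3/sid2 minus the same in WT, which understates differences of genes with low values. The 18547 loci with at least 1 FPKM in at least 1 genotype served as the background, and all 10 genes are among them. CAMTA1 and CAMTA3 had 3.30 and 2.68 FPKM in camta1/2/3/sid2, against 13.6 and 9.94 FPKM in WT. CAMTA2 and ICS1 had 6.32 and 3.73 FPKM in camta1/2/3/sid2, against 9.25 and 4.56 FPKM in WT. Of the leaf markers, LHCB3 had 815 FPKM in camta1/2/3/sid2 and 1760 FPKM in WT, which is 2.16-fold lower. RCA, CA1 and GOX1 had 3121, 5970 and 1264 FPKM in camta1/2/3/sid2, against 1944, 3603 and 937 FPKM in WT, with RCA 1.61-fold and CA1 1.66-fold higher. Thus 3 of 4 leaf markers lay past 1.5-fold, in opposite directions, against 3.80% of analysed loci in either direction. The part of these differences in the results was not tested. Of the root markers, PYK10 had 55.8 FPKM in camta1/2/3/sid2 and 51.6 FPKM in WT. CASP1 and CASP2 had 1.57 and 0.107 FPKM in camta1/2/3/sid2, against 0.940 and 0.155 FPKM in WT, and CASP5 was listed at 0 in both. Leaf markers were thus high and endodermal root markers low, with PYK10 in between. The tissue holds many cell types, so fewer cells of a type and less RNA per cell cannot be told apart.

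EDS1, PAD4 and SAG101 are related lipase-like proteins, and EDS1 pairs with either PAD4 or SAG101. Receptors with a Toll/interleukin-1 receptor (TIR) domain make nucleotide-derived signals that bind these pairs. The EDS1-PAD4 pair then engages the ADR1 helpers, which support resistance and salicylic acid accumulation, and the EDS1-SAG101 pair engages the NRG1 helpers, which promote cell death. Both helper groups are nucleotide-binding leucine-rich repeat proteins (NLRs) with an N-terminal domain like that of the RPW8 resistance protein. NDR1 is a plasma membrane protein needed by several coiled-coil receptors, among them RPS2 and RPM1, and it binds their guarded partner RIN4. CAMTA3 has been described as a repressor that binds the EDS1 promoter, which is why this layer is of interest in a camta mutant.

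Because several of the genes exist as copies, their sequences were compared first. The coding sequences of EDS1 (AT3G48090) and EDS1B (AT3G48080), neighbours on chromosome 3, were 84.0% identical over 1859 aligned bases, and the encoded proteins 74.0% identical over 620 residues. Below are coding bases 1 to 120 of each, 5′ to 3′, from RefSeq's TAIR10.1 sequence (minus strand of the chromosome), with the 24 bases that differ in capitals.
EDS1: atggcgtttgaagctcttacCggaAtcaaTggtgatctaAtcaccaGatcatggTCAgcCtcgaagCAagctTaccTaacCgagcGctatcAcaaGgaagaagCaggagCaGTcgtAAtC
EDS1B: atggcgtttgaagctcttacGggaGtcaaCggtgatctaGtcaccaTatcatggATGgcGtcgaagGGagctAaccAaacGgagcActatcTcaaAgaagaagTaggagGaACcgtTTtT
NRG1.1 (AT5G66900) and NRG1.2 (AT5G66910), neighbours on chromosome 5, were 84.1% identical in coding sequence over 2415 bases and 73.3% in protein over 804 residues. Coding bases 150 to 269 of NRG1.1 line up with coding bases 12 to 131 of NRG1.2, and 35 of these 120 bases differ, again in capitals and read from the minus strand.
NRG1.1: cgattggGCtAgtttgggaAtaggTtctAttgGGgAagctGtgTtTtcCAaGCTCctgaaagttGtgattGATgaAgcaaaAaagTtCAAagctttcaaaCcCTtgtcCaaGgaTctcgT
NRG1.2: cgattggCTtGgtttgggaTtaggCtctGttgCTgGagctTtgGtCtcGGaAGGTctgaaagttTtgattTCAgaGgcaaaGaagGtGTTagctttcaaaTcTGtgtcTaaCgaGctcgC

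Exact stretches long enough to hold a read were few. Of the 50-base words in the EDS1 transcript 0.919% also lie in the EDS1B transcript, and of those in the EDS1B transcript 0.910% lie in EDS1. For NRG1.1 and NRG1.2 the shares were 2.41% and 2.42%. The 3 ADR1 genes shared no such word with each other, and their coding sequences were 71.0% to 76.0% identical. Over the whole genome, the share of exonic 50-base words found more than once reached 5.58% for NDR1, 3.56% for ADR1-L1, 2.68% for NRG1.1 and 2.56% for NRG1.2, and lay under 1% for the other 6 genes. No source used here gives the read length, so 50 bases is a chosen length. EDS1, PAD4 and SAG101 were far apart, with 61.3% to 62.5% identity in coding sequence and 28% to 29.8% in protein for the 3 pairs.

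The 10 genes were expressed at low to moderate levels, and their order was almost the same in both genotypes. ADR1-L1 (AT4G33300) was highest, with 20.4 FPKM in camta1/2/3/sid2 and 23.6 FPKM in WT. That is above 67.8% of the analysed loci in camta1/2/3/sid2 and above 70.4% in WT. NDR1 (AT3G20600) was second, with 17.7 FPKM in camta1/2/3/sid2 and 19.98 FPKM in WT, and NRG1.1 followed in both. The lowest in camta1/2/3/sid2 was EDS1B and the lowest in WT was ADR1 (AT1G33560). The highest gene stood at 10.4 times the lowest in each genotype. EDS1, PAD4, SAG101 and ADR1-L2 had closely spaced levels, between 9.21 and 11.01 FPKM in camta1/2/3/sid2 and between 8.45 and 11.1 FPKM in WT, and with no replicate spread their order among each other is not resolved.

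**Figure D1:**
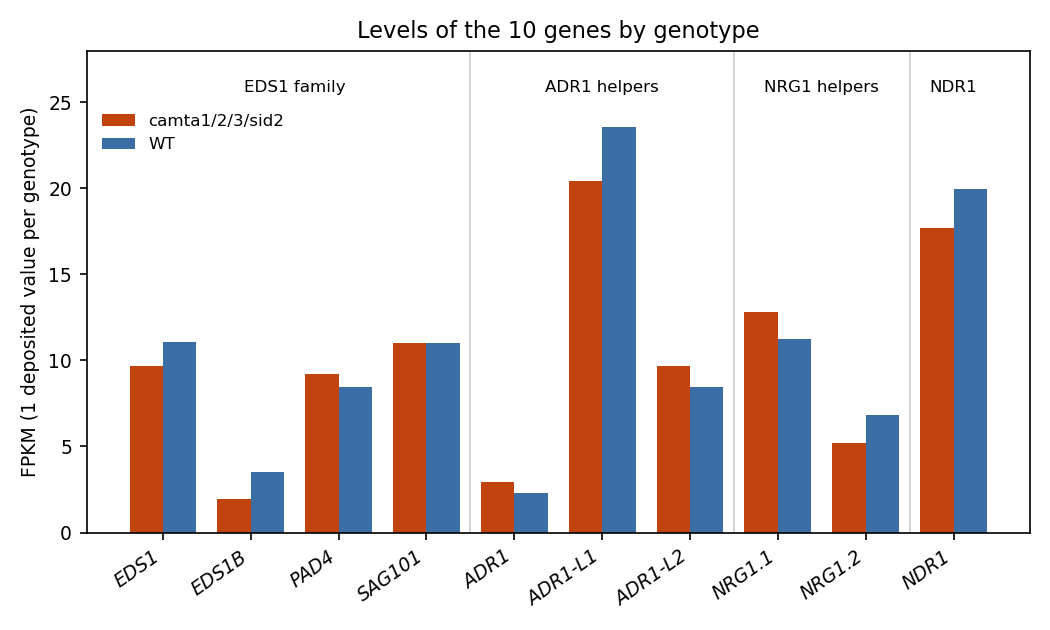
Bars give the deposited FPKM of each gene, on a linear axis from 0, with camta1/2/3/sid2 left of WT; there is 1 value per genotype, so no error bar can be drawn. ADR1-L1 and NDR1 are highest in both genotypes, and SAG101 has 11.01 FPKM in each.

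Levels of this layer differed little between the genotypes, as did those of most analysed loci. Nothing particular to this layer is read from the counts below. Of the 10 genes 5 were higher and 5 lower in camta1/2/3/sid2, and SAG101, counted as higher, was all but equal. Among all analysed loci 35.4% were higher and 64.6% lower. None of the 10 reached a 2-fold difference, against 1.48% of analysed loci, and 1, EDS1B, lay past 1.5-fold, against 3.80% of analysed loci in either direction and 1.99% in the lower direction. The log2 ratios of the 10 genes had a median of -0.08 and ran from -0.62 for EDS1B to 0.26 for ADR1. The median over all analysed loci was -0.06. Among the 11603 loci with a mean of 2 to 25 FPKM, the range in which these genes lie, the 5th percentile of the log2 ratio was -0.36 and the 95th was 0.27, and 9 of the 10 genes lay between these values.

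**Figure D2:**
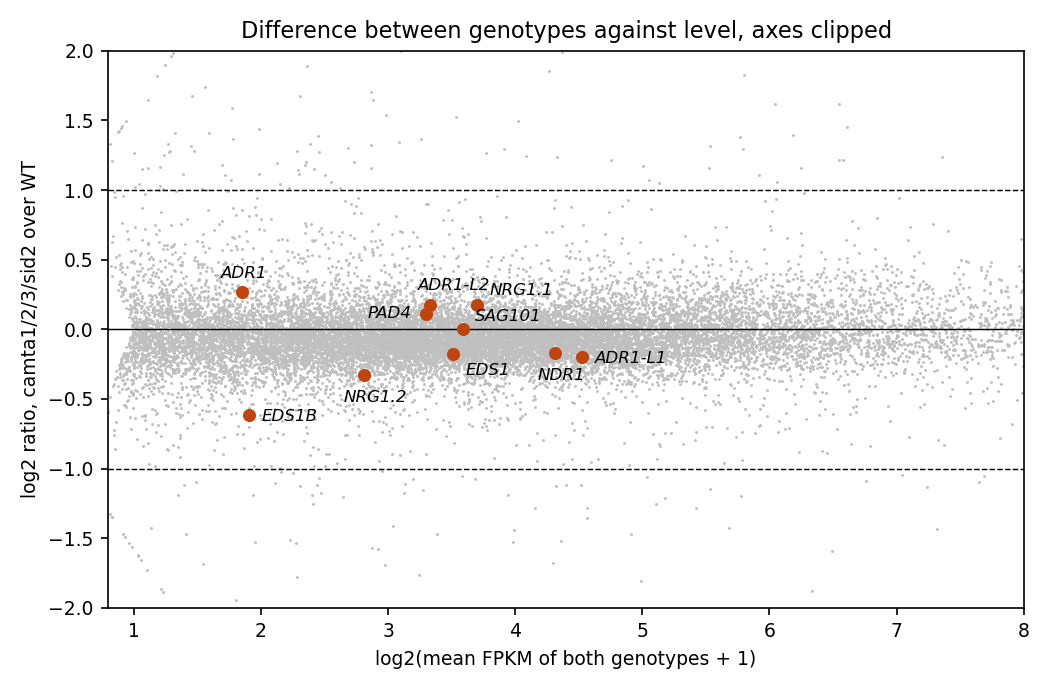
Each grey point is 1 analysed locus, with its mean level on the horizontal axis and its log2 ratio (camta1/2/3/sid2 over WT) on the vertical axis; the 10 genes are named, the dashed lines mark 2-fold, and points beyond the axes are not drawn. All 10 genes lie inside the dashed lines, with EDS1B lowest at -0.62 and ADR1 highest at 0.26.

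Within the EDS1 family, the 2 EDS1 copies were lower, PAD4 was slightly higher and SAG101 was equal. EDS1, the shared partner of both pairs, had 9.67 FPKM in camta1/2/3/sid2 and 11.1 FPKM in WT, a log2 ratio of -0.18. That ratio lay above 21.8% of all analysed loci, so EDS1 was well inside the bulk of the transcriptome. EDS1B had 1.97 FPKM in camta1/2/3/sid2 and 3.54 FPKM in WT, which is 1.803-fold lower as a plain ratio of FPKM. Its log2 ratio of -0.62 lay above 1.77% of analysed loci and was the difference of greatest size among the 10. With all log2 ratios shifted so that the median locus stands at 0, EDS1B was at -0.55. It was then no longer past 1.5-fold on this scale, which adds 1 FPKM and understates differences at low values. The plain ratio was not shifted.

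The annotated EDS1B transcript overlaps AT3G48070, a RING/U-box protein gene on the opposite strand, over 503 of its 2576 exonic bases. AT3G48070 had 16.9 FPKM in camta1/2/3/sid2 and 17.3 FPKM in WT, several times the level of EDS1B and nearly equal between genotypes. No source used here says whether the libraries kept strand, so reads of the 2 genes may have been mixed over the overlap. The part of this overlap in the EDS1B value was not tested.

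PAD4 (AT3G52430), which joins EDS1 in the branch toward the ADR1 helpers, had 9.21 FPKM in camta1/2/3/sid2 and 8.45 FPKM in WT, a log2 ratio of 0.11. SAG101 (AT5G14930), first described as a senescence-associated gene, had 11.01 FPKM in both genotypes, with a log2 ratio of 0.00. The level of PAD4 was 0.952 times that of EDS1 in camta1/2/3/sid2 and 0.762 times in WT. SAG101 stood at 1.14 times EDS1 in camta1/2/3/sid2 and 0.993 times in WT. Summed over the copies, EDS1 and EDS1B reached 11.6 FPKM in camta1/2/3/sid2 and 14.6 FPKM in WT, a log2 ratio of -0.31, and EDS1B made up 16.9% of the sum in camta1/2/3/sid2 and 24.2% in WT.

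The ADR1 helpers, which act with EDS1 and PAD4, did not share a direction. ADR1 had 2.93 FPKM in camta1/2/3/sid2 and 2.27 FPKM in WT, a log2 ratio of 0.26 and 1.29-fold higher as a plain ratio. ADR1-L2 (AT5G04720) had 9.67 FPKM in camta1/2/3/sid2 and 8.45 FPKM in WT, a log2 ratio of 0.17. ADR1-L1, the most abundant of the helpers, had a log2 ratio of -0.20. The 3 genes summed to 33.0 FPKM in camta1/2/3/sid2 and 34.3 FPKM in WT, with ADR1-L1 at 61.9% of the sum in camta1/2/3/sid2 and 68.7% in WT. The annotated exons of ADR1-L1 overlap 3 loci on the opposite strand, over 16.6% of their length for a long non-coding RNA (AT4G08785) not analysed here, 6.77% for AT4G33290, listed at 0 in both genotypes, and 3.12% for AT4G33310. AT4G33310 had 43.2 FPKM in camta1/2/3/sid2 and 44.0 FPKM in WT.

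The NRG1 helpers, which act with EDS1 and SAG101, lay on either side of 0 while their sum was nearly equal. NRG1.1 had 12.8 FPKM in camta1/2/3/sid2 and 11.2 FPKM in WT, a log2 ratio of 0.17. NRG1.2 had 5.23 FPKM in camta1/2/3/sid2 and 6.82 FPKM in WT, a log2 ratio of -0.33, which lay above 6.75% of analysed loci and was second in size among the 10. Together they reached 18.0 FPKM in camta1/2/3/sid2 and 18.1 FPKM in WT. NRG1.2 made up 29.0% of this sum in camta1/2/3/sid2 and 37.8% in WT. All 5 helper genes summed to 51.1 FPKM in camta1/2/3/sid2 and 52.4 FPKM in WT.

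**Figure D3:**
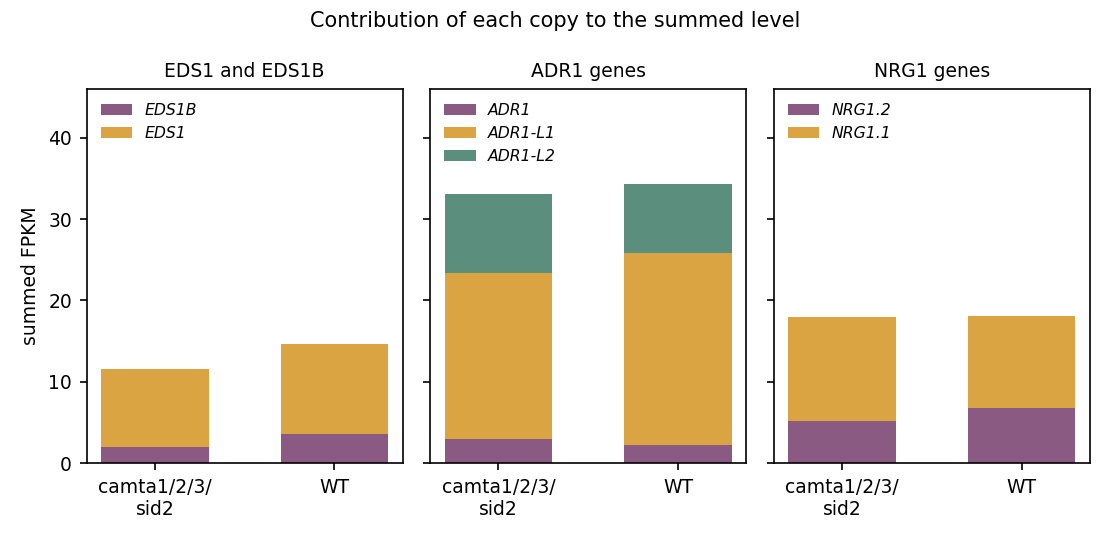
Stacked bars give the summed FPKM of the EDS1 copies, the ADR1 genes and the NRG1 genes in camta1/2/3/sid2 (left) and WT (right), with 1 value per genotype and no error. The NRG1 bars reach 18.0 FPKM in camta1/2/3/sid2 and 18.1 FPKM in WT although their makeup differs, and the EDS1 bars reach 11.6 FPKM in camta1/2/3/sid2 and 14.6 FPKM in WT.

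NDR1, the gene of the coiled-coil receptor route, had a log2 ratio of -0.17, close to those of EDS1 and ADR1-L1. Its ratio lay above 24.1% of analysed loci. The receptors and guarded proteins linked with it were close between genotypes as well. Among these 5 genes the median log2 ratio was -0.04, and 1 was higher against 4 lower, where 64.6% of all analysed loci were lower. RIN4, the guarded protein watched by RPM1 and RPS2, had 39.9 FPKM in camta1/2/3/sid2 and 35.1 FPKM in WT. The receptors RPS2 and RPM1 had 4.38 and 4.39 FPKM in camta1/2/3/sid2, against 4.99 and 4.70 FPKM in WT. The protein kinase PBS1 had 9.10 FPKM in camta1/2/3/sid2 and 9.38 FPKM in WT. RIN4 thus stood well above the receptors in both genotypes. NDR1/HIN1-like genes, the family NDR1 belongs to, were lower in 5 of 7 analysed members, near the 64.6% of analysed loci. The 2 other listed members were under 1 FPKM in both genotypes, and both stood higher in camta1/2/3/sid2. Nothing is thus read from this count. The median log2 ratio of the 7 was -0.23, and it was -0.071 with every listed locus kept. NHL3, a plasma membrane member induced by bacteria, had 43.6 FPKM in camta1/2/3/sid2 and 62.7 FPKM in WT, a log2 ratio of -0.51. NHL2, NHL26 and AT2G27080 had 10.9, 23.1 and 0.586 FPKM in camta1/2/3/sid2, against 13.2, 27.2 and 1.27 FPKM in WT. AT2G27080 reached 1 FPKM in WT alone, so it entered the 7 through the genotype where it was higher.

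Relatives of the helpers outside the 10 genes were in part listed at 0. ADR1-L3 (AT5G47280), which has a shorter coding sequence than the other ADR1 genes, was listed at 0 in both genotypes, as was AT5G66890, the neighbour of NRG1.1. A value of 0 in such a table can be a failed estimate. The homologues of RPW8, small proteins that resemble the N-terminal domain of the helpers, differed widely in level. HR4 (AT3G50480) had 36.5 FPKM in camta1/2/3/sid2 and 30.1 FPKM in WT, a log2 ratio of 0.27. HR3 (AT3G50470) had 5.87 FPKM in camta1/2/3/sid2 and 4.36 FPKM in WT, a log2 ratio of 0.36. HR1 (AT3G50450) had 0.789 FPKM in camta1/2/3/sid2 and 1.07 FPKM in WT, so it passed the filter in WT alone. HR2 (AT3G50460) was under 1 FPKM in both, with 0.0576 FPKM in camta1/2/3/sid2 and 0.0629 FPKM in WT. The 2 higher of these genes, HR4 and HR3, were also the most abundant.

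Upstream of the EDS1 pairs, most TIR-domain receptor genes were close between genotypes, as most analysed loci were. The 16 analysed genes of 19 listed had a median log2 ratio of 0.01. On each side of 0 lay 8 genes, against 35.4% of analysed loci higher and 64.6% lower. Among the 8 lower genes, 1 reached 1 FPKM in WT alone, so the filter set its direction. On the log2 scale with 1 FPKM added, 0 of the 16 lay past 1.5-fold, against 3.80% of analysed loci. CHS1 (AT1G17610), whose mutant form causes chilling sensitivity, had 5.81 FPKM in camta1/2/3/sid2 and 3.77 FPKM in WT. Its log2 ratio was 0.51, above 97.8% of analysed loci, and it was 1.54-fold higher as a plain ratio. Its neighbour AT1G17600, a TIR-NBS-LRR gene, had 4.51 FPKM in camta1/2/3/sid2 and 3.27 FPKM in WT. The log2 ratio of AT1G17600, 0.37, lay above 95.9% of analysed loci. The TIR-NBS gene AT1G66090 had 1.94 FPKM in camta1/2/3/sid2 and 1.45 FPKM in WT. RPS6, a receptor of bacterial effectors, was on the other side of 0, with 15.03 FPKM in camta1/2/3/sid2 and 16.71 FPKM in WT. Proteins that fold NLRs or limit their amount were lower in 8 of 10, against 64.6% of analysed loci, and all lay within 1.5-fold. Their median log2 ratio was -0.11, against -0.06 over all analysed loci, and -0.044 once ratios were shifted to a median of 0. CRT1, an ATPase of the MORC family that interacts with NLRs, had 6.28 FPKM in camta1/2/3/sid2 and 7.42 FPKM in WT. The co-chaperones RAR1 and SGT1B had 17.6 and 64.4 FPKM in camta1/2/3/sid2, against 20.1 and 70.2 FPKM in WT. SRFR1, a repressor of TIR receptors that binds EDS1, had 14.5 FPKM in camta1/2/3/sid2 and 16.2 FPKM in WT.

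Genes known to modify EDS1 and PAD4 signalling lay on both sides of 0, with log2 ratios from -0.49 to 0.50. The 11 analysed modifiers had a median of -0.08, and 5 of them were higher, against 35.4% of analysed loci. BAP1, 1 of these 5, reached 1 FPKM in camta1/2/3/sid2 alone, so the filter set its direction and nothing is read from this count. NUDT7, a Nudix hydrolase that restrains EDS1 signalling, had 21.3 FPKM in camta1/2/3/sid2 and 14.8 FPKM in WT, a log2 ratio of 0.50. BAP1, which with BON1 holds back the TIR receptor SNC1, had 1.4 FPKM in camta1/2/3/sid2 and 0.732 FPKM in WT. BON1, which passed the filter in both genotypes, had 9.30 FPKM in camta1/2/3/sid2 and 7.35 FPKM in WT. ACD6, a membrane protein that promotes salicylic acid accumulation, had 242 FPKM in camta1/2/3/sid2 and 341 FPKM in WT, a log2 ratio of -0.49.

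Of 11 listed genes downstream of the EDS1 pairs, 9 passed the filter of 1 FPKM, and 3 of these reached it in 1 genotype alone. FMO1 and AIG1 reached it in camta1/2/3/sid2 alone and GRX480 in WT alone, so these 3 had to differ. For this reason nothing is read from a count or a median over the 9. The median log2 ratio of the 9 was 0.53, and it was 0.055 over the 3 genes with at least 5 FPKM. One of the 9 is ICS1, itself mutated. FMO1, which makes the immune signal N-hydroxypipecolic acid, had 2.27 FPKM in camta1/2/3/sid2 and 0.0453 FPKM in WT, a log2 ratio of 1.65. AIG1, named for its induction by the bacterial effector AvrRpt2, had 2.05 FPKM in camta1/2/3/sid2 and 0.529 FPKM in WT, a log2 ratio of 0.998. CBP60G, a transcription factor of salicylic acid synthesis, and PBS3, an enzyme of that pathway, had log2 ratios of 0.67 and 0.61. These 4 genes had low levels in WT, so their ratios rest on small values.

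**Figure D4:**
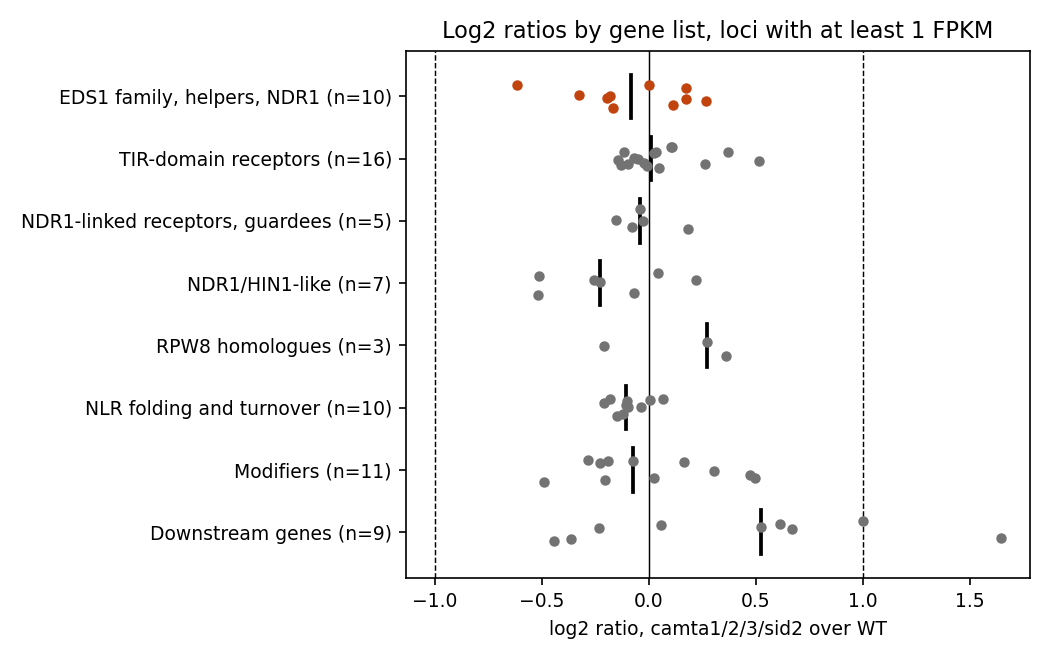
Each point is the log2 ratio (camta1/2/3/sid2 over WT) of 1 gene with at least 1 FPKM, in rows by gene list with the number of genes, and the thick line marks the median of the list; dashed lines mark 2-fold. The 10 genes of the layer, in the top row, have a median of -0.08. The downstream genes in the bottom row have one of 0.53, or 0.055 over the 3 with at least 5 FPKM. Of the downstream genes, 2 passed the filter in camta1/2/3/sid2 alone and 1 in WT alone, so nothing is read from the 0.53. The point at 1.65 is FMO1, which was under 1 FPKM in WT.

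CAMTA factors bind sites with the core CGCG, so the sequence before each gene start was searched for these 4 letters, which read alike on both strands, and for the longer form CGCGTT on either strand, which holds the core. From 250 bases before to 50 after the annotated start, 3 of the 10 genes (ADR1-L2, NRG1.1 and NDR1) held CGCG, against 13.0% of the 27443 windows of protein-coding genes, and 2 held CGCGTT, against 3.40%. In the 1000 bases before the start, 4 of 10 held CGCG, against 32.2% of all windows, and 4 held CGCGTT, against 8.66%. The 4 genes were EDS1, ADR1, ADR1-L2 and NDR1, each with 1 site in which the core is flanked by A and T. In EDS1 the CGCGTT match is a separate site, 979 bases before the start and inside the neighbouring gene ARR5. These sites are shown, 5′ to 3′ on the strand of the gene, with CGCG in capitals and 12 bases on either side, from RefSeq's TAIR10.1 sequence.
EDS1: agtcgaatgtgaCGCGtcttgccgaacg
ADR1: tattaatcaaaaCGCGtaaaaagagtaa
ADR1-L2: aattttattgaaCGCGtgttaaggacgt
NDR1: tatttggctaaaCGCGtgtgtgcgtgtg
The EDS1 site (chr3:17758422-17758449, minus strand) has its core 290 bases before the EDS1 start, at the 3′ end of ARR5. The ADR1 site (chr1:12168436-12168463, plus strand) has its core 320 bases before the start, the ADR1-L2 site (chr5:1360431-1360458, plus strand) 146 bases before it and the NDR1 site (chr3:7194724-7194751, plus strand) 35 bases before it, all 3 outside annotated genes. The genes with such a site had log2 ratios of -0.18 for EDS1, 0.26 for ADR1, 0.17 for ADR1-L2 and -0.17 for NDR1, so they lay on both sides of 0. A match of these letters is a description of the sequence and not evidence of binding.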

How the data were processed

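The deposited table gives FPKM values made by the authors, per the file headers, as 1 value per genotype and locus. Per the submitters' processing notes, the build was TAIR10 and the tools included Cufflinks 2.1.1, Cuffdiff and TopHat 1.4.1. No source used here says how the 3 libraries of a genotype entered this value, and depth is unknown. FPKM are not counts, so no count model was used.

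The log2 ratio was computed with a pseudocount of 1 FPKM over loci with at least 1 FPKM in at least 1 genotype. With 1 value per genotype nothing was tested, and 2-fold and 1.5-fold differences on this scale were counted. Genes and lists were chosen with earlier results of these data known, and 1 listed gene is not reported here. The text names all 10 genes, every helper relative and RPW8 homologue, the mutated genes and markers, and up to 4 analysed genes of each other list with the largest absolute log2 ratio. No genes of like pattern are named, since likeness over 2 values carries no information.

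All 10 loci matched RefSeq's TAIR10.1 annotation, which supplied gene models and sequences; its coordinates are those of TAIR10.1, while the authors' table holds none. Coding sequences of the longest annotated model were aligned globally with Biopython 1.88. The ratio step was tested on simulated data. Calculations used Python 3.11.15, numpy 2.4.6, pandas 2.3.3 and matplotlib 3.10.9.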

Additional observations from a re-analysis of the deposited data

How the results depend on the processing

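No paired analysis was possible because the table holds 1 value per genotype, and for the same reason no replicate could be left out. The alternatives were a pseudocount of 0.1 or 0.5, keeping every locus, keeping loci with at least 5 FPKM, shifting ratios to a median of 0, and summing EDS1 with EDS1B. Plain ratios, and leaving out EDS1B and ADR1-L1, whose models overlap other genes, were chosen after seeing the data. Of 59 alternative values of single genes, 55 stayed within 0.1 of the log2 ratio given and 0 changed sign. EDS1B moved to -0.82 with a pseudocount of 0.1 and -0.85 as a plain ratio, ADR1 to 0.37 as a plain ratio, and EDS1 to -0.31 when summed with EDS1B. No gene of the 10 reached 2-fold under any of these settings. Without EDS1B and ADR1-L1 the median of the remaining 8 genes was 0.056, with 3 lower. The downstream list had a median of 0.64 with a pseudocount of 0.1, 0.65 as a plain ratio and 0.055 among genes with at least 5 FPKM. The median of the modifiers was -0.19 with that filter. With every locus kept, the median of the RPW8 homologues was 0.13, against 0.27 over the 3 analysed. That of the NDR1/HIN1-like genes was then -0.071, against -0.23 over the 7 analysed. Shifts with a smaller or no pseudocount follow from the formula, since adding 1 FPKM shrinks the ratios of genes with low values. That of EDS1 follows from adding EDS1B to it. The other shifts come with the genes dropped or added, and nothing beyond this was tested. Unknown depth limits every value under about 1 FPKM.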
